A study of Mus musculus with 6 samples.

Results

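The 7 genes that encode the platelet-derived growth factor (PDGF) receptors and ligands of the mouse were described in fetal testicular interstitial cells kept with or without a Hedgehog agonist. They are the receptor kinase genes Pdgfra and Pdgfrb, the receptor-like gene Pdgfrl and the ligand genes Pdgfa, Pdgfb, Pdgfc and Pdgfd. They were taken by symbol, and all 7 were found among the 24413 rows of the deposited table that name a gene. The samples were 10000 W-EGFP cells each, from the testes of FLE-EGFP mice at E16.5. In these mice the fluorescent protein EGFP is under the fetal Leydig cell enhancer of Nr5a1, and the labels do not explain the W. The SAG group, 3 libraries, received 0.5 µM Smoothened agonist for 1 hour, and the DMSO group, also 3 libraries, received the vehicle for the same time. In both groups the table's column names contain "siCnt", which no label explains, so whether all cells had also received a control siRNA is not stated. Whether the libraries of a group came from different animals or cultures is not said, and a p-value here covers the spread from library to library, which may be technical.

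PDGF ligands are dimers of A, B, C or D chains that bind and pair the receptor tyrosine kinases PDGFR-alpha and PDGFR-beta, which then switch on the Ras-MAP kinase, PI3 kinase and phospholipase C routes. The alpha receptor binds the A, B and C chains, while the beta receptor binds mainly the B and D chains. In the developing testis Pdgfra marks interstitial mesenchyme, PDGF-A is made largely by the epithelium of the cords, and mice without Pdgfra have disturbed cords and few fetal Leydig cells. Pdgfrb is best known in pericytes and other perivascular cells.

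Recovered reads per library ran from 18486396 to 25491259 with DMSO and from 7694479 to 8804335 with SAG, so the SAG libraries were the shallower. Signal is the authors' scaled read count per gene, in which 1 read is worth 0.0414 to 0.0564 with DMSO and 0.106 to 0.128 with SAG. Gli1, the standard Hedgehog target, went from at most 0.846 in the DMSO libraries to at least 30.8 in the SAG libraries. Every DMSO library held 0 spike-in reads, while SAG replicate 1 held 111, SAG replicate 2 held 54 and SAG replicate 3 held 1205. Depth and spike-in reads thus both separated the groups. Whether the groups were also prepared or sequenced differently, and what part this has in the differences below, was not tested. SAG replicate 3 stood apart from the other 5 libraries. Ribosomal Rn45s took 1.67% of that library, against 0.326% to 0.360% elsewhere, and its spike-in reads were the most numerous. Its summed signal of 4 adrenal cortex markers was 61.8, against 6.92 and 3.28 in SAG replicates 1 and 2 and at most 2.31 with DMSO.

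With SAG the alpha receptor gene rose and 3 of the 4 ligand genes fell. Of the 7 members 1 passed the test as higher and 3 as lower, where over all 12550 genes tested 12.9% were higher and 16.6% lower (29.6% either way). The test was limma on log2(signal + 1), with a call at a Benjamini-Hochberg adjusted p under 0.05. Pdgfra rose, Pdgfa, Pdgfb and Pdgfc fell, and Pdgfrb, Pdgfrl and Pdgfd did not pass. For 5 of the 7 members the SAG and DMSO libraries did not overlap, 2 of them higher and 3 lower, against 48.0% of all genes tested (21.2% higher and 26.8% lower). Without SAG replicate 3, limma called 2 more members, Pdgfrb and Pdgfrl, both higher, where it called 46.6% of all genes (19.7% higher and 27.0% lower). All 7 had a mean signal above the filter of 1 in either group. These are bulk samples, in which fewer cells of a type and less RNA per cell cannot be told apart.

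**Figure D1:**
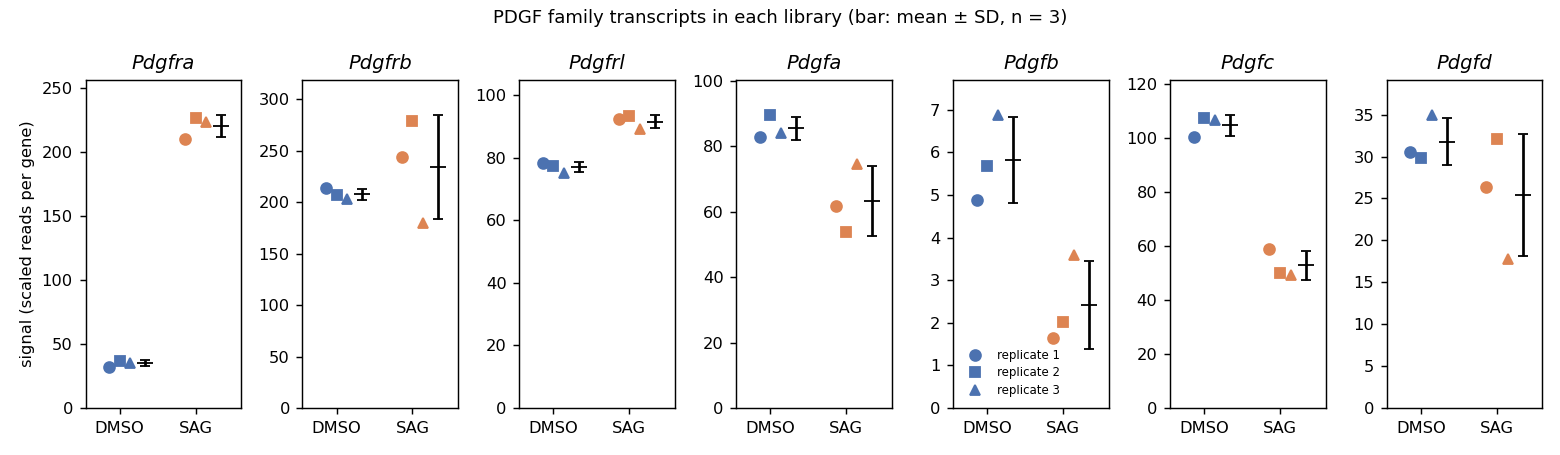
Signal (scaled reads per gene, linear axes from 0) of the 7 PDGF family genes in each library, with replicates 1 to 3 as circles, squares and triangles and the mean ± SD (n = 3) beside them. Pdgfra sits between 32.2 and 36.9 with DMSO and between 210 and 227 with SAG, and the orange triangle of SAG replicate 3 is the lowest SAG library for Pdgfrb and Pdgfd and the highest for Pdgfa and Pdgfb.

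Pdgfra, the receptor for most PDGF dimers, had signals of 32.2, 36.9 and 35.1 in DMSO replicates 1 to 3 and of 210, 227 and 224 in SAG replicates 1 to 3. Every SAG library was several times above every DMSO library, and SAG replicate 3 lay between the other SAG libraries. The mean rose from 34.7 ± 2.36 to 220 ± 8.69 (SD, n = 3), a ratio of 6.34 (log2 fold change 2.63 with SE 0.10; limma, Benjamini-Hochberg adjusted p = 4.1e-06). Its log2 fold change was the 34th highest of the 12550 genes tested. The spread among replicates was small, with a coefficient of variation of 6.79% with DMSO and 3.95% with SAG. The reads behind these values numbered 623 to 798 per DMSO library and 1741 to 2140 per SAG library, so the shallower group held more Pdgfra reads in every library. Across 19 other ways of processing or leaving out a library the log2 fold change stayed between 2.58 and 2.77, and each kept the call.

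The gene Pdgfra covers 75152292 to 75198215 of chromosome 5 in GRCm38, plus strand, with 10024 bases of exon over all its GENCODE M21 transcripts. Antisense gene Gm42802 shares 456 of these bases and Gm42803, also on the other strand, shares 166. Neither is a row of the table, and since the strand setting of the counting is not given, reads from them cannot be told apart from those of Pdgfra. The bases before the RefSeq start sites of the member that rose and of the member with the smallest p among those that fell are shown to let the sequences be compared. They come from the RefSeq promoter table on GRCm38.p6, which held 4 of the 7 members. Capitals mark CCACCC, a box bound by Sp and Kruppel-like factors that also lies within the Gli consensus.
Pdgfra, chr5:75152001-75152250, plus strand: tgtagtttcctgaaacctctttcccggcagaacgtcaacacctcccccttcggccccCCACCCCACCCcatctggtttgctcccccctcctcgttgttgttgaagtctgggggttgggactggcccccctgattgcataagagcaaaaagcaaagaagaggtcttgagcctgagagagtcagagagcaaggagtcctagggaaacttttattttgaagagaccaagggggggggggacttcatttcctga
Pdgfc, chr3:81036166-81036415, plus strand: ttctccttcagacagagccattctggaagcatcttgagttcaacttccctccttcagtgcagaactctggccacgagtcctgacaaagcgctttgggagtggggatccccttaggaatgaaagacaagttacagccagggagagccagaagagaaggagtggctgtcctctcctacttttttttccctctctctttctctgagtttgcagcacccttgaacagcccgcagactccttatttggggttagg

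On either strand the Pdgfra window held 2 overlapping matches to CCACCC, and the Pdgfc window held 0. Of the members not printed, Pdgfa, which fell, held 1 CCACCC in each of its 2 windows, and Pdgfd held 0. Of all 32851 promoter windows of 250 bases in the table, 28.1% held a CCACCC. The Gli consensus GACCACCCA was in neither window, nor in those of Pdgfa or Pdgfd, and in 0.225% of all windows. The GC box GGGCGG was in neither printed window and in 32.7% of all windows, and TATAAA was in neither and in 12.4% of all. The Pdgfa windows held 1 and 2 GC boxes and the Pdgfd window 1 TATAAA. GC content was 54.4% in the Pdgfra window and 50.8% in the Pdgfc window. These matches describe letters only.

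Pdgfrb, the receptor of perivascular cells, had signals of 214, 207 and 203 with DMSO and of 244, 279 and 180 with SAG. SAG replicates 1 and 2 lay above every DMSO library and SAG replicate 3 below every DMSO library, so the groups overlapped. The means were 208 ± 5.34 and 234 ± 50.6 (n = 3), and the log2 fold change of 0.15, with a 95% confidence interval of -0.18 to 0.48, did not pass (limma, Benjamini-Hochberg adjusted p = 0.478). Without SAG replicate 3 the mean of the SAG libraries was 262 and Pdgfrb passed as higher (log2 fold change 0.33; limma, Benjamini-Hochberg adjusted p = 5.06e-04). That was the single call among 19 alternatives, and in the other 18 the adjusted p ran from 0.208 to 0.954. Of 10 markers of pericytes and vascular smooth muscle, 5 fell, 2 rose (Abcc9 and Notch3) and 3 were under the filter. Over all genes tested, 12.9% were higher and 16.6% lower. Abcc9 was at a mean of 0.549 with DMSO and reached the filter through its SAG libraries. The summed signal of the 10 markers was 13065 to 13702 with DMSO and 8331 to 9721 with SAG. Most of it was Acta2, at means of 9797 with DMSO and 6581 with SAG. Pericyte genes Rgs5 and Higd1b were at a mean signal of at most 0.455 in either group. Kcnj8, also under the filter, had means of 0.156 with DMSO and 1.09 with SAG. Other markers of the list were abundant. Cspg4 had means of 620 with DMSO and 453 with SAG, Mcam of 536 and 355, and Notch3 of 62.9 and 112. The part of these cells in the Pdgfrb values was not tested.

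Pdgfrl encodes a secreted protein that resembles the outer part of the receptors and lacks the kinase. Its signals were 78.5, 77.3 and 75.3 with DMSO and 92.4, 93.2 and 89.1 with SAG, so the groups were tight and did not overlap. The mean went from 77.0 ± 1.61 to 91.6 ± 2.16, 1.19-fold (log2 fold change 0.25, 95% confidence interval 0.04 to 0.46). This did not pass after adjustment (limma, Benjamini-Hochberg adjusted p = 0.0719). It passed in edgeR (adjusted p = 0.0468) and DESeq2 (0.0261) on the recovered reads. Of all genes edgeR called 29.7% (15.2% higher and 14.5% lower) and DESeq2 32.7% (17.0% higher and 15.7% lower). It also passed in limma with scaling by library total (0.0164), with length and GC trends removed (0.0224) and without SAG replicate 3 (0.00899). The log2 fold change ran from 0.23 to 0.39 over the 19 alternatives. Its place is 40926212 to 40990785 of chromosome 8, plus strand.

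The alpha receptor made up a larger share of the kinase receptor signal in each SAG library than in any DMSO library. Per kb of exonic length, Pdgfra made up 7.62%, 8.88% and 8.64% of the summed Pdgfra and Pdgfrb signal in DMSO replicates 1 to 3, and 32.0%, 30.7% and 40.5% in SAG replicates 1 to 3. SAG replicate 3, with the lowest Pdgfrb, had the highest share. The mean went from 8.38% ± 0.671 to 34.4% ± 5.30, a difference of 26.0 percentage points (exact permutation of the 6 libraries, two-sided, p = 0.1, the smallest that 3 against 3 can give). A share within a library does not change with the scaling of that library, but it does depend on the gene lengths. The difference was 34.5 points with no length correction and 31.4 points with the longest transcript of each gene, an alternative added later. Summed over both kinase receptors, signal per kb went from 41.4 ± 0.817 to 64.8 ± 9.28, higher in each SAG library.

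**Figure D2:**
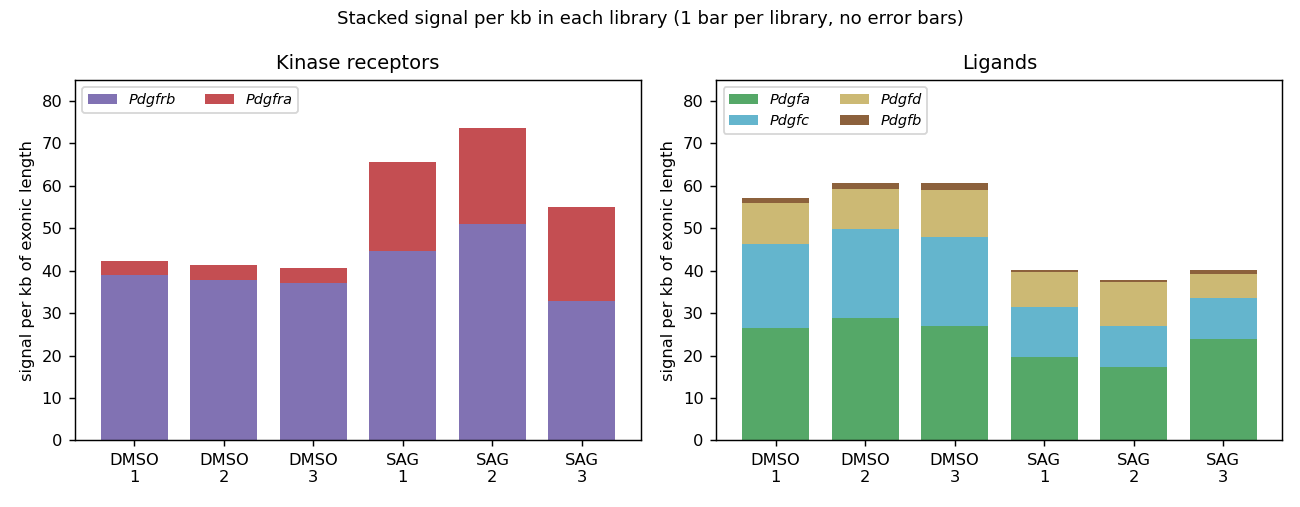
Signal per kb of exonic length (linear axes from 0), stacked over Pdgfrb and Pdgfra on the left and over the 4 ligand genes on the right, with 1 bar per library. The red Pdgfra part is at most 3.68 in the DMSO bars and up to 22.6 in the SAG bars, and the ligand bars are 57.1 to 60.6 with DMSO and 37.7 to 40.1 with SAG.

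Among the ligand genes Pdgfc had the smallest p. Pdgfc encodes a chain that is secreted in a latent form and must be cut before it can bind the alpha receptor. Its signals were 100, 107 and 106 with DMSO and 59.0, 50.1 and 49.1 with SAG, with no overlap and with SAG replicate 3 beside SAG replicate 2. The mean fell from 104.6 ± 3.83 to 52.7 ± 5.45, 1.98-fold lower (log2 fold change -0.98, SE 0.11; limma, Benjamini-Hochberg adjusted p = 2.91e-04). In the 19 alternatives each kept the call, at log2 fold changes from -1.06 to -0.84. It covers 81036416 to 81214040 of chromosome 3, plus strand. Antisense gene Gm16000, which the table does not list, shares 147 of its 5089 exonic bases.

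Pdgfa, the classical ligand of the alpha receptor and the main PDGF of the fetal cords, had signals of 82.9, 89.6 and 84.0 with DMSO and of 61.6, 53.7 and 74.8 with SAG. SAG replicate 3 was the closest to the DMSO libraries, and the groups did not overlap. The mean fell from 85.5 ± 3.58 to 63.4 ± 10.6, 1.35-fold lower (log2 fold change -0.44, SE 0.13; limma, Benjamini-Hochberg adjusted p = 0.0310). This call was the weakest of the family. It was lost with limma without trend (adjusted p = 0.0561), with scaling by library total (0.0903) and without any single library except SAG replicate 3 (0.0712 to 0.124), and without that library the adjusted p was 1.01e-05. It covers 138976014 to 138997370 of chromosome 5, minus strand, and antisense gene 6330403L08Rik, not in the table, shares 813 of its 3119 exonic bases.

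Pdgfb, the ligand that endothelium and platelets use to recruit perivascular cells, was the least abundant member. It had 118, 123 and 122 reads with DMSO and 15, 19 and 28 reads with SAG, or signals of 4.89, 5.69 and 6.88 against 1.65, 2.01 and 3.596. The groups did not overlap, and SAG replicate 3 was the highest SAG library. The mean fell from 5.82 ± 1.00 to 2.42 ± 1.04, 2.40-fold lower (log2 fold change -1.03, SE 0.24; limma, Benjamini-Hochberg adjusted p = 0.0123). Without SAG replicate 3 the ratio of means was 3.18-fold, and without DMSO replicate 3 the call was lost (adjusted p = 0.0652, with 4.28e-05 to 0.0484 in its other alternatives). The 7 endothelial markers summed to 32.1 to 39.3 with DMSO and to 50.9, 49.8 and 35.7 in SAG replicates 1 to 3. Most of this was Cdh5 (VE-cadherin), at means of 27.8 with DMSO and 38.6 with SAG, which did not pass. Emcn, at 3.31 and 2.02, was lower in each SAG library than in any DMSO library and did not pass either. Egfl7, at 3.42 and 3.62, did not pass. Pecam1, Tek and Tie1 had mean signals of at most 0.752, and Cldn5 had 0 reads in every library. Platelet genes Pf4, Ppbp, Gp9 and Treml1 also had 0 reads, and Itga2b and Gp1bb summed to 44.1 to 56.7 with DMSO and 49.8 to 59.9 with SAG. The part of these cells in the Pdgfb values was not tested. The gene covers 79995874 to 80014977 of chromosome 15, minus strand.

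Pdgfd, a ligand of the beta receptor that is also secreted latent, had signals of 30.5, 29.9 and 35.0 with DMSO and of 26.4, 32.1 and 17.7 with SAG. SAG replicate 2 fell within the DMSO range and SAG replicate 3 was far below it. The means were 31.8 ± 2.78 and 25.4 ± 7.24, and the log2 fold change of -0.35 (95% confidence interval -0.79 to 0.09) did not pass (limma, Benjamini-Hochberg adjusted p = 0.208). None of its 19 alternatives passed, with adjusted p from 0.0620 to 0.534. It covers 6168584 to 6378850 of chromosome 9, plus strand.

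Levels can be compared between genes only per length, and here signal per kb of exonic length is used. With DMSO the order was Pdgfrb (37.9 ± 0.974), Pdgfa (27.4 ± 1.15), Pdgfrl (24.6 ± 0.515), Pdgfc (20.6 ± 0.752), Pdgfd (10.1 ± 0.881), Pdgfra (3.47 ± 0.235) and Pdgfb (1.40 ± 0.241). No neighbours in that order overlapped among the DMSO libraries. With SAG it was Pdgfrb (42.8 ± 9.23), Pdgfrl (29.3 ± 0.690), Pdgfra (22.0 ± 0.867), Pdgfa (20.3 ± 3.41), Pdgfc (10.4 ± 1.07), Pdgfd (8.05 ± 2.29) and Pdgfb (0.581 ± 0.249). At these lengths Pdgfra thus stood in the third place with SAG and in the sixth with DMSO. The order can change with the length chosen, which for Pdgfra was 10024 bases, where its longest transcript has 6834. In the SAG libraries the ranges of Pdgfra and Pdgfa overlapped, as did those of Pdgfc and Pdgfd. The 4 ligand genes summed to 59.5 ± 2.01 with DMSO and 39.3 ± 1.37 with SAG (exact two-sided permutation p = 0.1, the smallest possible), and SAG replicate 3, at 40.1, matched SAG replicate 1.

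Kit, the next protein-coding gene after Pdgfra on chromosome 5, moved with it. Kit encodes the stem cell factor receptor, a kinase of the same class. Its signals were 3.85, 5.92 and 8.35 with DMSO and 41.3, 35.8 and 33.0 with SAG, with no overlap. From a mean of 6.04 ± 2.25 it rose 6.08-fold to 36.7 ± 4.22 (log2 fold change 2.47 with SE 0.22; limma, Benjamini-Hochberg adjusted p = 9.5e-05). The Kit start site lies 423 kb beyond that of Pdgfra. Kdr, the VEGF receptor gene that follows 826 kb beyond Pdgfra, had signals of 2.71 ± 0.267 and 3.01 ± 0.182, which did not pass (adjusted p = 0.678).

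On the other side the nearest gene, Gsx2, had no reads, and Chic2 had SAG signals of 43.3, 35.9 and 84.5 against 30.2 to 33.3 with DMSO, with SAG replicate 3 the highest (limma, Benjamini-Hochberg adjusted p = 0.0893). Farther out on that side within 1000 kb, Lnx1 rose from 0.818 ± 0.250 to 2.27 ± 0.239 and Rasl11b 1.61-fold, while Scfd2 and Fip1l1 did not pass. The DMSO mean of Lnx1 was under the filter of 1, which the gene reached through its SAG libraries. Its reads numbered 10 to 23 per DMSO library and 16 to 23 per SAG library. Beyond Kdr, on the side of Kit, Srd5a3 rose 1.37-fold. Adjusted p-values (limma, Benjamini-Hochberg) were 0.00106 for Rasl11b, 0.0186 for Lnx1 and 0.0404 for Srd5a3. Whether this stretch differs from others was not tested.

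**Figure D3:**
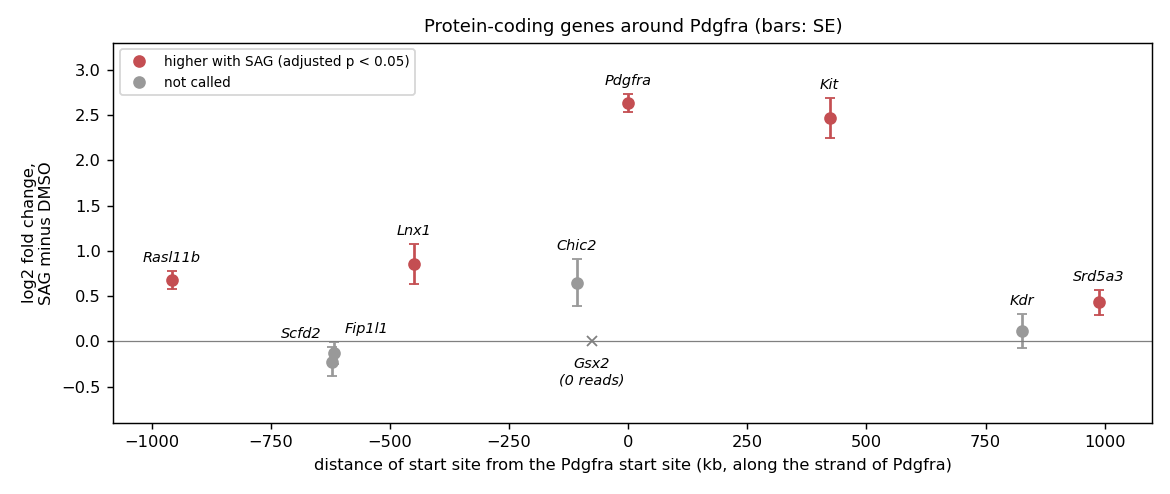
Log2 fold change (SAG minus DMSO, of signal + 1, bars show SE) of each protein-coding gene that starts within 1000 kb of the Pdgfra start site, against the distance of its start site in kb. Pdgfra at 2.63 and Kit at 2.47 stand above the other genes, Kdr beyond Kit is at 0.11, and Gsx2 had 0 reads.

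The nearest protein-coding neighbours of the other members, among genes that do not overlap the member, were followed in the same way. Mtus1, whose end lies 0.129 kb from Pdgfrl, was 1.34-fold lower, at 114.5 ± 3.77 and 85.2 ± 3.08 (limma, Benjamini-Hochberg adjusted p = 0.00899), a call lost with scaling by library total or without DMSO replicate 1 or 2, and Slc7a2 on its other side was at 10.4 ± 1.19 and 10.7 ± 1.47. Beside Pdgfa, Prkar1b (a regulatory subunit of protein kinase A) was 1.33-fold lower (adjusted p = 0.0375), a call lost with scaling by library total, with the replicate block and without any single library except SAG replicate 3. Next to Pdgfb, the Polycomb gene Cbx7 rose from 0.992 ± 0.158 to 3.25 ± 1.14 (adjusted p = 0.0105), opposite to Pdgfb, and Rpl3 did not pass. The DMSO mean of Cbx7 was under the filter of 1, which the gene reached through its SAG libraries. Ctso, 719 kb from Pdgfc, rose 1.56-fold (adjusted p = 0.0208), a call lost without any single DMSO library. Of the neighbours of Pdgfrb, Cdx1 had no reads and Csf1r was at 1.58 ± 0.369 and 0.915 ± 1.03. Casp12 and Dync2h1 beside Pdgfd did not pass, and Gm5294 beside Pdgfa had no reads. The protein-coding gene Ddi1 overlaps Pdgfd on the other strand, with 0 shared exonic bases, and was not among the neighbours followed. Glrb, on the other side of Pdgfc, was under the filter, at 0.961 and 0.145 in the mean, with groups that did not overlap.

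Of 15 genes that process or bind PDGF 3 rose, 5 fell, 5 did not pass and 2 were under the filter, beside 12.9% higher and 16.6% lower over all genes tested, with a median log2 fold change of -0.12 against -0.03 over all genes tested. Plat, tissue plasminogen activator, which cuts latent PDGF-C, rose 1.97-fold, from 37.6 ± 0.781 to 74.1 ± 13.2. Plau, the activator of PDGF-D, was at 132 ± 2.27 and 167 ± 32.3 and did not pass.

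Pcsk5, a proprotein convertase gene, rose 2.74-fold, and Dcn, which encodes the matrix proteoglycan decorin, rose 4.42-fold. Thrombospondin gene Thbs1 fell 2.25-fold. The co-receptor genes Nrp1 and Lrp1 were 1.40-fold and 1.64-fold lower, and Cspg4, which encodes the proteoglycan NG2 and is also one of the mural markers above, 1.37-fold lower. For these genes with a call the Benjamini-Hochberg adjusted p from limma ran from 2.1e-05 (Dcn) to 0.0186 (Cspg4). Plat, Plau, Nrp1, Lrp1 and Cspg4 were named after their values were seen.

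Genes that relay the receptor signal were called about as often as all genes. Of 35 adaptor and kinase genes 2 rose, 9 fell and 24 did not pass, where 12.9% of all genes rose and 16.6% fell (median log2 fold change -0.12). With scaling by library total 4 rose and 6 fell. Pik3cb, a catalytic subunit of PI3 kinase, fell from 18.2 ± 0.654 to 9.22 ± 1.55, Braf from 43.7 ± 2.56 to 23.2 ± 2.94, the adaptor gene Crk from 229 ± 18.8 to 142 ± 19.3 and Src from 83.3 ± 2.77 to 53.6 ± 5.37. Adjusted p-values (limma, Benjamini-Hochberg) of these 4 lay between 0.00107 (Braf) and 0.00287 (Src). The members that rose were the adaptor gene Gab1 (1.39-fold) and Stat5b (1.45-fold), named after their values were seen. Leaving out SAG replicate 3 gave 14 lower, and leaving out any single DMSO library gave 1 higher.

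Of 10 attenuators, which dampen the signal, 0 rose and 3 fell in limma (12.9% and 16.6% over all genes), with a median of -0.30, 1 was under the filter and none was higher at an unadjusted p under 0.05 or in edgeR or DESeq2. The adaptor gene Grb10 fell from 1496 ± 73.7 to 741 ± 10.3, the phosphatase gene Ptpn12 from 73.7 ± 7.02 to 49.5 ± 1.86, and the ubiquitin ligase gene Cbl from 42.6 ± 1.42 to 24.9 ± 6.90. Their adjusted p-values (limma, Benjamini-Hochberg) were 9.1e-05, 0.00500 and 0.0105.

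Of 14 genes classically induced by PDGF in fibroblasts, 2 rose, 6 fell, 4 did not pass and 2 were under the filter, beside 12.9% higher and 16.6% lower over all genes, with a median log2 fold change of -0.69. Ptgs2, inducible cyclooxygenase, was 4.41-fold lower, Hbegf, an EGF receptor ligand, 2.61-fold and Plaur, the urokinase receptor gene, 1.65-fold lower. The immediate early genes Fos and Egr1 rose, Fos from 4.63 ± 0.329 to 14.0 ± 4.59 and Egr1 from 56.8 ± 3.35 to 100.8 ± 26.2. The other 3 that fell were Fosl1, Ier3 and Has2, named with Egr1 and Myc after their values were seen. Myc was at 38.4 ± 3.18 and 31.5 ± 2.91 and did not pass. The Benjamini-Hochberg adjusted p from limma for the 8 calls ran from 2.1e-05 (Ptgs2) to 0.0252 (Has2).

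**Figure D4:**
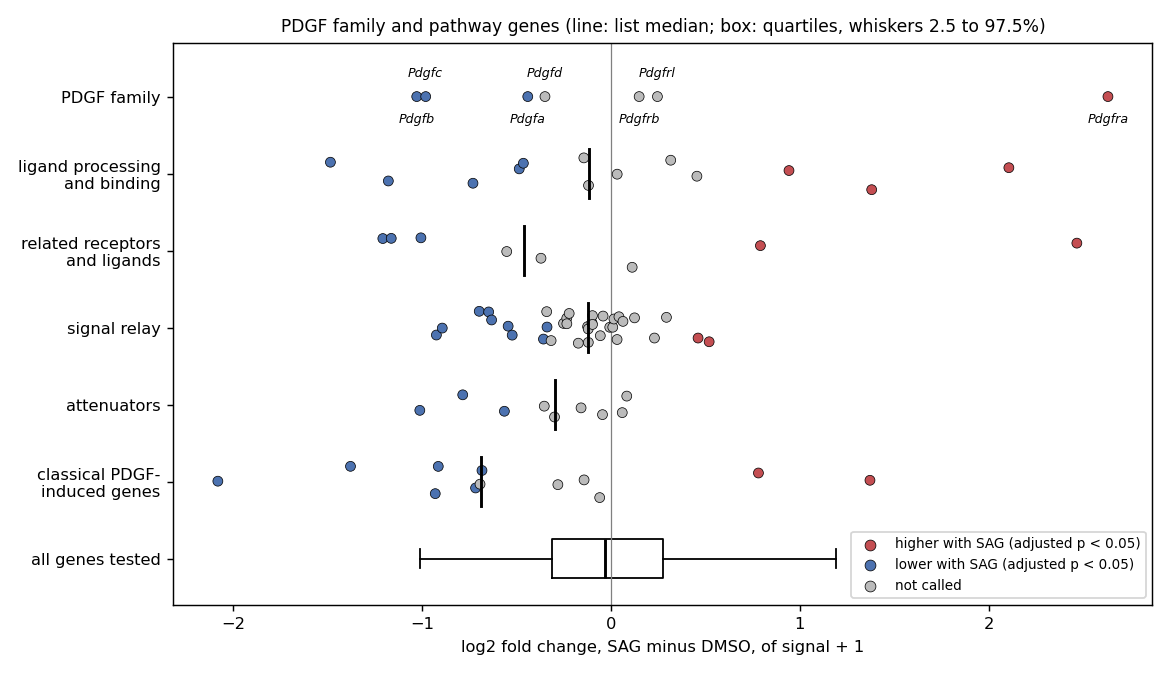
Log2 fold change (SAG minus DMSO, of signal + 1) of each tested gene of the PDGF family and of 5 lists around it, red where called higher and blue where called lower, with a line at each list's median and a box for all 12550 genes. Pdgfra at 2.63 is far to the right of the other 6 members, and the median of the classical PDGF-induced genes lies at -0.69 against -0.03 for all genes.

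Markers of interstitial progenitor cells rose beside Pdgfra. Of 10 markers 7 rose, 1 fell (Wnt5a) and 2 did not pass, where 12.9% of all genes rose and 16.6% fell, and their summed signal was 635 to 686 with DMSO and 1084 to 1279 with SAG. Tcf21, a mesenchymal transcription factor gene, rose from 42.9 ± 3.36 to 249 ± 29.9. Each of the 10 markers had reads in every library, which does not by itself identify the cells. By summed signal the mural markers, described beside Pdgfrb, were the highest of the marker lists in every library, and most of that was Acta2. Markers of several other cell types were low: the summed signal was at most 3.41 in any library for 7 macrophage, 2.86 for 6 germ cell and 0.508 for 6 erythroid markers, and 30.5 to 39.3 for 7 Sertoli markers, of which Sox9 made up the most. Fetal Leydig markers summed to 32.3 to 33.3 with DMSO and to 23.0, 19.0 and 116 in SAG replicates 1 to 3. Of these 6 markers 1 rose, 0 fell, 2 did not pass (Star and Cyp11a1) and 3 were under the filter. Insl3, under the filter, was at a mean of at most 0.621. Hsd3b1 rose from a mean of 0.198 to 12.2 (limma, Benjamini-Hochberg adjusted p = 0.0193) and reached the filter through its SAG libraries. Its reads numbered 0, 8 and 4 with DMSO and 34, 19 and 240 with SAG. Without SAG replicate 3, Pdgfra was 6.29-fold higher and Pdgfc 1.92-fold lower, against 6.34-fold and 1.98-fold with all libraries. The part of any change in cell make-up in the PDGF values was not tested.

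**Figure D5:**
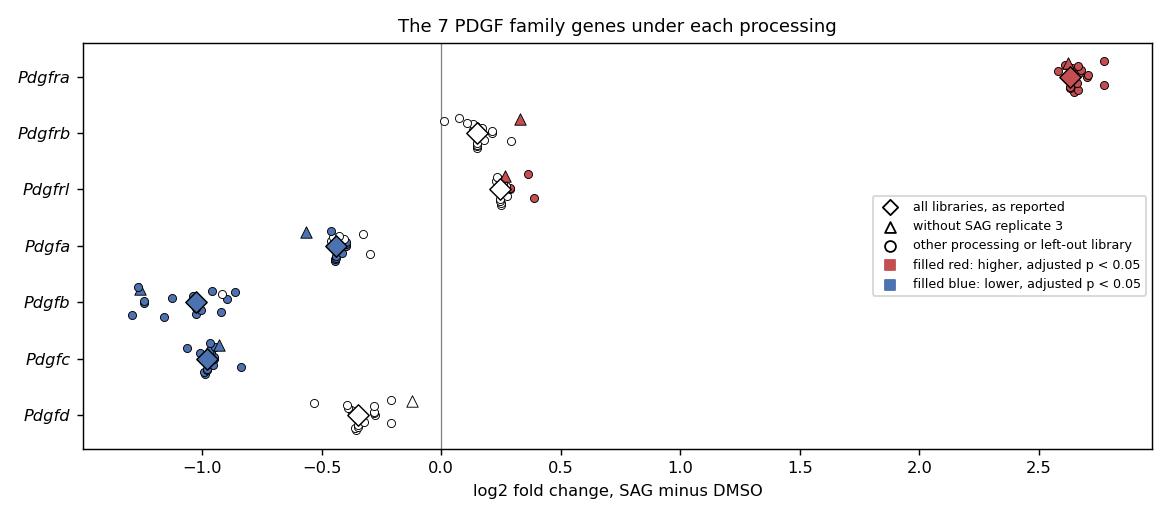
Log2 fold change (SAG minus DMSO) of each PDGF family gene with all libraries (diamond), without SAG replicate 3 (triangle) and under the other alternatives (circles), filled where the adjusted p is under 0.05. Pdgfra (2.58 to 2.77) and Pdgfc (-1.06 to -0.84) are filled throughout, Pdgfd is unfilled throughout, and Pdgfrb is filled without SAG replicate 3 alone.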

How the data were processed

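RNA-seq was done on 6 samples, 3 with DMSO and 3 with SAG, using a strand-preserving library kit, per the labels' protocols. The tools named in the submitters' processing notes are STAR, featureCounts 2.0.0, Trim Galore 0.6.4 and edgeR, with 2.2.1 given as its version, and the build is GRCm38 (mm10). Annotation and strand setting are not given in the sources used here. A single table of 24505 rows was deposited by the authors. Its values, called CPM in its name, are treated as a scaled signal because column sums differ. Dividing a column by the worth of 1 read gave whole numbers, within 0.01, for 100% of its values, and these are the recovered reads. The 92 spike-in rows, which name no gene, were left out of tests. The authors' signal was tested as log2(signal + 1) with limma 3.58.1 in R 4.3.3 (eBayes with trend, group as the only term) on the 12550 genes whose mean signal over the libraries reached 1. Log2 fold changes understate the change of low genes, and plain folds are ratios of mean signals. Gene lengths and positions are from GENCODE M21.

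Alternatives were pseudocounts of 0.5 and 0.1, filters, scalings, eBayes settings, a replicate block, edgeR 4.0.16 and DESeq2 1.42.0 on the recovered reads, thinned DMSO reads and each library left out. The removal of length and GC trends was chosen after seeing the data. The limma step was tested on simulated data, where it recovered 33% of 1.5-fold and 91% of 2-fold changes, with 0.8% of calls false. A change of 1.5-fold or less can thus go uncalled. The simulation changed 100 genes at each fold, all with a mean signal of at least 5. It used a fixed spread for each group and held no outlying library. The rates may thus not hold for low genes such as Pdgfb or with a library such as SAG replicate 3. The members and lists were chosen with earlier results of these data known. Named genes were the 7 members, the called genes among the 4 with the smallest p of each list, the nearest protein-coding neighbours of each member, and the 3 genes with the nearest profile, predicted genes aside. Genes named outside these rules are said to be so, apart from markers, Gli1, Rn45s, genes overlapping members and those within 1000 kb of Pdgfra. Results for 2 single genes of these lists are not reported here. Intervals cover the fit's error only.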

Additional observations from a re-analysis of the deposited data

How the results depend on the processing

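Pdgfra and Pdgfc kept their calls in all 19 alternatives and Pdgfd passed in none. Pdgfb misses the stricter filter (mean 5) and was not tested there. Pdgfa was not called with scaling by library total (log2 fold change -0.30) or with eBayes without trend (-0.44), and Pdgfrl was called with scaling by library total (0.39), edgeR (0.29), DESeq2 (0.29) and length and GC trends removed (0.36). Scaling by library total moved the median of all genes from -0.03 to 0.10, the called genes from 1625 higher and 2084 lower to 2477 and 1259, and the share of higher calls from 43.8% to 66.3%. It also gave 5 higher ligand processing genes, as did DESeq2, and 4 higher relay genes. The related receptor list had 1 higher under the stricter filter and with the replicate block. The Pdgfra share differed by 34.5 points without length correction and 31.4 with the longest transcript.

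With each library left out in turn, log2 fold changes ran from 2.58 to 2.67 for Pdgfra, 0.012 to 0.33 for Pdgfrb, 0.23 to 0.27 for Pdgfrl, -0.56 to -0.33 for Pdgfa, -1.26 to -0.86 for Pdgfb, -1.06 to -0.93 for Pdgfc and -0.53 to -0.12 for Pdgfd. The Pdgfra share differed by 23.0 to 27.9 points. Called genes ran from 901 to 2463 higher and from 1086 to 3373 lower, the highest of each without SAG replicate 3. Ligand processing genes ran from 3 to 4 higher and 3 to 5 lower, related receptors from 1 to 2 and 3 to 4, relay genes from 1 to 3 and 6 to 14, attenuators from 0 to 0 and 3 to 4, and PDGF-induced genes from 2 to 2 and 4 to 7.

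Same-numbered libraries did not deviate together (correlations of their deviations -0.02, 0.03 and -1.7e-04). Whether they were prepared as pairs is not stated, and these values cannot show it. The replicate block gave 1549 higher and 1976 lower genes and changed no call among the 7 members (Pdgfra 4.1e-07, Pdgfa 0.0370, Pdgfb 0.00571 and Pdgfc 3.2e-04, limma adjusted p). Of the 49 other named genes under the alternatives, 869 of 925 values kept their side of the threshold, 34 lost the call, 22 gained it and 0 changed sign with a call. The cause of these shifts was not tested. At 15 to 28 reads per SAG library, depth limits the precision for Pdgfb most.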

Other observations

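Receptors and ligands related to the PDGF receptors were called in both directions. Of the 10, 2 rose, 3 fell, 3 did not pass and 2 were under the filter. Over all genes tested, 12.9% were higher and 16.6% lower. Besides Kit, described above, the ligand gene Flt3l rose, from 1.23 ± 0.304 to 2.93 ± 1.00. With any single DMSO library, SAG replicate 2 or SAG replicate 3 left out, 1 gene of the list was higher. Csf1, the macrophage growth factor gene, had signals of 358, 335 and 403 with DMSO and of 178, 162 and 148 with SAG, 2.24-fold lower with no overlap. The VEGF receptor gene Flt1 was 1.99-fold lower, at 89.1 ± 2.89 and 44.8 ± 10.5, and Flt4 3.19-fold lower, at 4.94 ± 1.05 and 1.55 ± 0.122. Adjusted p-values (limma, Benjamini-Hochberg) were 1.2e-04 for Csf1, 0.00220 for Flt1, 0.00268 for Flt4 and 0.0419 for Flt3l. Kitl, the ligand of Kit, was at 27.2 ± 3.63 and 21.4 ± 7.11 and did not pass. Flt3 had 0 reads in every library. Flt3l, Kitl and Flt3 were named after their values were seen.

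The genes whose profiles over the 6 libraries were nearest to that of Pdgfra, by Euclidean distance between mean-centred log2(signal + 1) values, were Tcf21 (distance 0.29), Myh8 (0.31) and Sema3g (0.34). Myh8, a myosin heavy chain gene of developing skeletal muscle, had 0, 0 and 4 reads with DMSO and signals of 5.05, 5.40 and 4.88 with SAG. Sema3g, a secreted semaphorin gene, had 2, 8 and 3 reads with DMSO and signals of 7.47, 7.73 and 8.35 with SAG. Both are low genes, whose log2 values depend on the pseudocount. Nearest to Pdgfc were Pdpn (podoplanin, 0.11), Nrp2 (0.12) and Phldb2 (0.13), with log2 fold changes of -0.99, -0.97 and -0.90. Nrp2, a semaphorin and VEGF co-receptor gene, went from 286 ± 1.99 to 146 ± 9.13.

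Nearest to Pdgfrb were Maml1 (0.06), Rfc2 (0.07) and Ptk7 (0.09). Ptk7, a receptor-like Wnt pathway gene, shared the low value of SAG replicate 3, which was 209 against 300.0 and 334 in the other SAG libraries and 243 to 251 with DMSO. Nearest to Pdgfa were Rala, Aldh1b1 and Cul5 (0.04 to 0.10), to Pdgfb Zdhhc21, Mbp and Sema3e (0.30 to 0.33), to Pdgfrl Pofut2, Tspan4 and Hp1bp3 (0.08 to 0.09) and to Pdgfd Cit, Cep135 and Spg11 (0.10 to 0.14). With 6 libraries in 2 groups many genes lie close to any given profile, and these distances are a description only.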
